A study of Mus musculus with 18 samples.

Results

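The response of p53-/- mouse embryonic stem cells to adriamycin was examined on 6 whole-transcript expression arrays, chosen by their labels from the 18 arrays of the series. Of these, 3 came from untreated p53-/- cells and 3 from p53-/- cells kept for 8 hours in 0.5 µM adriamycin. All 6 share the p53-/- genotype and a 129X1 x 129S1 background, and were grown in serum medium with leukemia inhibitory factor. The labels name neither the p53-/- line nor how many clones it holds. For comparison, 4 mock and 4 adriamycin arrays (0.5 µM, 8 hours) of R1E cells, an embryonic stem cell line with no p53 lesion given in the labels, were used; the strain of R1E is not on its labels. Nothing in the labels tells whether replicate arrays were separate cultures; the p-values then cover only the spread among these arrays, and that may be technical.

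Adriamycin (doxorubicin) traps topoisomerase II on DNA and leaves double-strand breaks. In most cells p53, a transcription factor stabilised by DNA damage, then switches on genes of cell cycle arrest, repair and apoptosis. Other responses, such as the loss of histone mRNA when DNA synthesis stalls, can occur without p53. The 6 arrays compare treated with untreated p53-/- cells, and so show changes after adriamycin in cells without p53.

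Few genes passed the test with all 6 arrays without p53, and most of these were lower after adriamycin, mainly replication-dependent histones. The number and direction of calls depended on the settings. Array weights gave 692 higher and 722 lower, and at an unadjusted p below 0.05 more genes were higher (7.68%) than lower (3.89%). A limma fit on the 6 arrays called 19 of 19938 genes at a Benjamini-Hochberg adjusted p below 0.05, which is 0.0953% of the genes tested. There were 16 lower (0.0802% of all genes) and 3 higher (0.015%). Among the 16 were 11 histone genes and 2 small nucleolar RNA (snoRNA) genes. None of the 42 measured p53-activated targets or the 40 pluripotency genes was called. With 0.0953% of all genes called, no call in lists of this size says little about them. At an unadjusted p below 0.05, 11 of the 42 were higher (26.2%) and 6 of the 40 lower (15%). The labels were checked on markers: the 8 stem cell markers had a mean level between 10.3 and 10.6 on the log2 intensity scale, above 98.3% to 98.7% of genes on each array. Trp53 itself, Cdkn1a and Bax were not analysed here, because no probe named them alone, so the genotype label was not checked on its own gene.

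**Figure D1:**
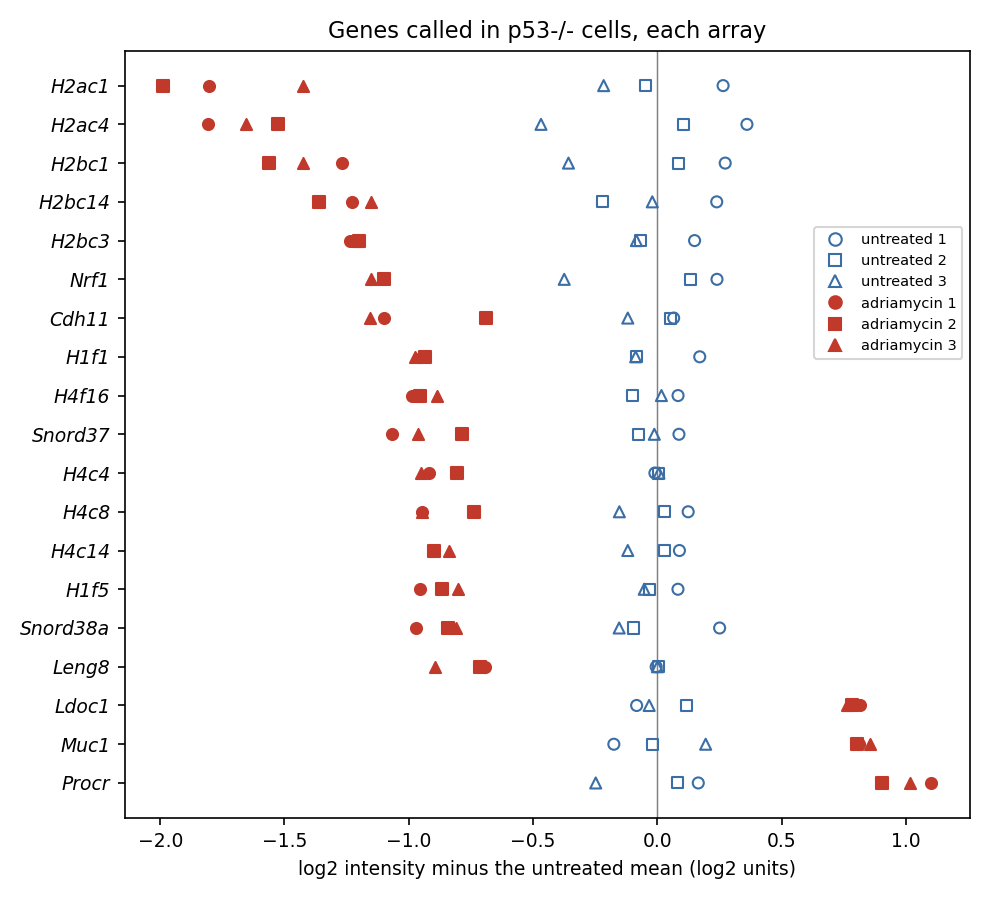
Level of each of the 19 called genes on the 6 p53-/- arrays, as log2 intensity minus the mean of the 3 untreated arrays; open blue symbols are untreated arrays, filled red symbols adriamycin arrays, and the symbol shape gives the replicate number. The groups do not overlap for any of the 19 genes, 16 lie to the left after adriamycin and Procr, Muc1 and Ldoc1 to the right.

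Untreated replicate 3 stood apart from the other arrays. Its fitted array weight was 0.268, against 0.802 to 3.21 for the other 5 arrays. It correlated with its own group at a mean r of 0.985, against 0.989 and 0.991 for untreated replicates 1 and 2. Every adriamycin array correlated with its own group at 0.992 or 0.993. With this array left out, a choice made because it stood apart, limma called 443 genes (2.22% of those tested), 134 higher (0.672%) and 309 lower (1.55%). All 19 genes called with 6 arrays were among them, each in the same direction. For 288 of the 309 lower genes (93.2%) untreated replicate 3 read below both other untreated arrays, which it did for 40.5% of all genes; for 93 of the 134 higher genes (69.4%) it read above both, which it did for 42.0% of all genes. The 443 genes therefore rest on 2 untreated arrays. Changes are from all 6 arrays unless this array is said to be left out, and some genes are given from both fits. Apart from the 19, no gene was called with all 6 arrays. The calls also depended on the other arrays: 1 gene was higher and 5 were lower without untreated replicate 1, and 1 and 4 without untreated replicate 2. Without adriamycin replicate 1 or 2 no gene was called, and without adriamycin replicate 3 only 1 was, a lower one. At an unadjusted p below 0.05 with all 6 arrays, 1532 genes were higher (7.68%) and 775 lower (3.89%); the groups of 3 did not overlap for 2453 genes in the higher direction (12.3%) and 1030 in the lower (5.17%). When each array was centred on its median, 1 gene was called higher and 23 lower, so that higher calls made up 4.17% of all calls in place of 15.8%. Over all genes the median change was 0.06, and 12486 of the 19938 changes lay above 0.

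The histone genes carried the largest falls. Replication-dependent histone genes encode the bulk histones H1, H2A, H2B, H3 and H4; they are transcribed in S phase, and their mRNAs end in a stem-loop in place of a poly(A) tail and decay when DNA synthesis stops. The upstream sequences of 6 of the genes that fell are shown because they let the members be compared: the 5 H2A and H2B genes called with all 6 arrays share an octamer (ATTTGCAT), the site known in H2B promoters for the POU factor OCT1, while H1f1 does not. Each line gives the 200 bases before the annotated start (RefSeq, GRCm38.p6), 5′ to 3′ on the gene's strand. Capitals mark the octamer, the TATA box (searched as TATAAA), the CCAAT box and the H1 box known from H1 promoters (searched as AAACACAAA), each in either orientation.

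H2ac1, chr13:23934237-23934436, plus strand: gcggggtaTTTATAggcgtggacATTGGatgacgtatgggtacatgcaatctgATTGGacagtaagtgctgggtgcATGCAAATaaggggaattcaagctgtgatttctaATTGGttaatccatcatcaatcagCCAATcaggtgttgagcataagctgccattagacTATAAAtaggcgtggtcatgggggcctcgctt
H2bc1, chr13:23934157-23934356, minus strand: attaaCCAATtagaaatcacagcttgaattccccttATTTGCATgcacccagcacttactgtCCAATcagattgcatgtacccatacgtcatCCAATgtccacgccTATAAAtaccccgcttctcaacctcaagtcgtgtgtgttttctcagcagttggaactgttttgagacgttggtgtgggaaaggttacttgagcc
H2ac4, chr13:23750888-23751087, plus strand: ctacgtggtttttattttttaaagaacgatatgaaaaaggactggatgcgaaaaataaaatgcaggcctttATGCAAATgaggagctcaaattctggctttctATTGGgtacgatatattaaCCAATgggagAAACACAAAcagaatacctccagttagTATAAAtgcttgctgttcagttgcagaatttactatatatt
H2bc3, chr13:23746534-23746733, plus strand: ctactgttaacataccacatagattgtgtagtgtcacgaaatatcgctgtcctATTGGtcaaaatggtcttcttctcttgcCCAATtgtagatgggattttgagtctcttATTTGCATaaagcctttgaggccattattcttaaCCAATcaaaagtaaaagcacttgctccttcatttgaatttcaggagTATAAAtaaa
H2bc14, chr13:21721844-21722043, plus strand: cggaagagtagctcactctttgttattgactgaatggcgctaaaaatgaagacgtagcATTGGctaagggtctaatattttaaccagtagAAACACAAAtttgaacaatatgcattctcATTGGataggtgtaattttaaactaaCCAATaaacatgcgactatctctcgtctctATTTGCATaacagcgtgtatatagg
H1f1, chr13:23763468-23763667, plus strand: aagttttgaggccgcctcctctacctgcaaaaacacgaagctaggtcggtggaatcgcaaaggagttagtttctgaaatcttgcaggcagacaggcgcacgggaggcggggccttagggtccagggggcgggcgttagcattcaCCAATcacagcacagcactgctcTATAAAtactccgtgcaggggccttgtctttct

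The H2ac1 and H2bc1 windows share 120 bases (chr13:23934237-23934356), since this H2A and H2B pair starts from opposite strands of one stretch, and so they share the same octamer. A search on both strands of the 250 bases before the start covered 23 of the 27 measured histone genes and 27025 genes in all. The octamer stood in 8 of the 23 histone windows and in 1.61% of all windows. All 8 belonged to H2A or H2B genes, of which 12 had a window. The TATA box stood in 15 of the 23 against 13% of all windows, and the CCAAT box in 19 against 34.5%. The exact letters AAACACAAA stood in 2, H2ac4 and H2bc14, against 0.629%. The shorter stretch AAACACA, which was not searched, stands upstream of H1f2, H1f3 and H1f5. The count therefore does not tell which histone genes have an H1 box. No searched motif overlapped another in the printed windows. The 8 H2A and H2B genes with the octamer had a median change of -1.23 (range -1.74 to -0.53), and the 4 without these letters (H2ac15, H2bc9, H2bu2 and H2bc22) a median of -0.50 (range -0.65 to -0.15). Without untreated replicate 3, 7 of the 8 and 3 of the 4 were called lower (1.55% of all genes were). This split was made after the values were seen and has no test; neighbouring genes share windows, and the absence of these letters says nothing about the factor.

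H2ac1, an H2A gene best known from testis, read 10.02, 9.71 and 9.54 on untreated replicates 1 to 3 and 7.96, 7.77 and 8.33 after adriamycin. All 3 treated arrays lay below the lowest untreated array. Its change was -1.74 (SE 0.17, adjusted p = 0.00509). Its divergent neighbour H2bc1, likewise a testis-enriched H2B gene, read 7.73, 7.54 and 7.10 on untreated replicates 1 to 3 and 6.19, 5.89 and 6.03 after adriamycin, with no overlap. Its change was -1.42 (SE 0.17, adjusted p = 0.00865). These genes also separated the cell sets: adriamycin changed H2ac1 by -0.23 and H2bc1 by -0.70 in R1E cells, and the p53-/- minus R1E difference was -1.51 (SE 0.22, adjusted p = 4.6e-05) for H2ac1 and -0.72 (SE 0.17, adjusted p = 0.00464) for H2bc1. The sets differ in genotype, cell line, array set and tool at once, and these cannot be told apart.

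H2ac4, an S-phase H2A gene of the large chromosome 13 histone cluster, read 9.92, 9.67 and 9.09 on untreated replicates 1 to 3 and 7.75, 8.03 and 7.90 after adriamycin. Untreated replicate 3 was the lowest of its group, yet stayed above every treated array. The change was -1.66 (SE 0.19, adjusted p = 0.00865), and in R1E cells it was -1.85. The H2B gene H2bc3 read 8.90, 8.68 and 8.66 on untreated replicates 1 to 3 and 7.51, 7.55 and 7.54 after adriamycin. Its 3 treated arrays were nearly equal, and its change was -1.21 (SE 0.12, adjusted p = 0.00509). H2bc14, a further H2B gene, read 10.93, 10.47 and 10.67 on untreated replicates 1 to 3 and 9.47, 9.33 and 9.54 after adriamycin, a change of -1.25 (SE 0.14, adjusted p = 0.00865). For these 3 genes the difference from R1E did not pass the test, at 0.19 (SE 0.35, adjusted p = 0.788) for H2ac4, 0.24 (SE 0.16, adjusted p = 0.364) for H2bc3 and -0.13 (SE 0.20, adjusted p = 0.735) for H2bc14.

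The linker histones H1f1 and H1f5 and the core histone H4 genes also fell. H1f1 read 11.35, 11.09 and 11.09 on untreated replicates 1 to 3 and 10.23, 10.24 and 10.20 after adriamycin, a change of -0.95 (SE 0.13, adjusted p = 0.0192). H1f5, among the brightest histone probes, read 12.06, 11.95 and 11.92 on untreated replicates 1 to 3 and 11.02, 11.11 and 11.18 after adriamycin, a change of -0.87 (SE 0.12, adjusted p = 0.0212). H4c4 read 11.29, 11.30 and 11.31 on untreated replicates 1 to 3 and 10.38, 10.50 and 10.35 after adriamycin, a change of -0.89 (SE 0.12, adjusted p = 0.0192). Its 3 untreated arrays were nearly equal, untreated replicate 3 included. The H4 genes H4c14, H4c8 and H4f16 changed by -0.88 (SE 0.12, adjusted p = 0.0212), -0.88 (SE 0.13, adjusted p = 0.0348) and -0.94 (SE 0.12, adjusted p = 0.0182). H4f16, a solitary H4 gene on chromosome 6, was not on the list of replication-dependent genes. Histone genes of one class are near-identical in their coding parts, so signal from copies cannot be fully separated.

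Over the list of replication-dependent histones, 27 of 65 genes were measured by a probe of their own. With all 6 arrays 10 of the 27 were called lower (0.0802% of all genes were) and none higher. Of the 27 changes 25 lay below 0 (7452 of 19938 over all genes), with a median of -0.62 against 0.06 for all genes. The groups did not overlap, in the lower direction, for 18 of the 27 (66.7%, against 5.17% of all genes). Without untreated replicate 3 the median was -0.75 and 18 fell (66.7%, against 1.55% of all genes), H2bc18, H2bc8, H2bc9 and H4c6 among those added. H2bc18 read 8.09, 7.73 and 7.56 untreated and 7.13, 6.98 and 6.88 treated. H2bc9 read 7.16, 7.01 and 6.02 untreated and 6.33, 6.41 and 6.04 treated: untreated replicate 3 lay below all 3 treated arrays, and leaving it out moved the change from -0.47 (SE 0.25) to -0.83 (SE 0.14, adjusted p = 0.0193). H2bc4 turned with this array, from 0.14 (SE 0.34) to -0.40 (SE 0.13, adjusted p = 0.112), where untreated replicate 3 read 5.97 beside 7.72 and 7.49. At the other end, the H3 genes H3c4 and H3c7 changed by -0.18 (SE 0.14) and -0.03 (SE 0.12), neither past the test, and H2bc21 by 0.04 (SE 0.15).

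**Figure D2:**
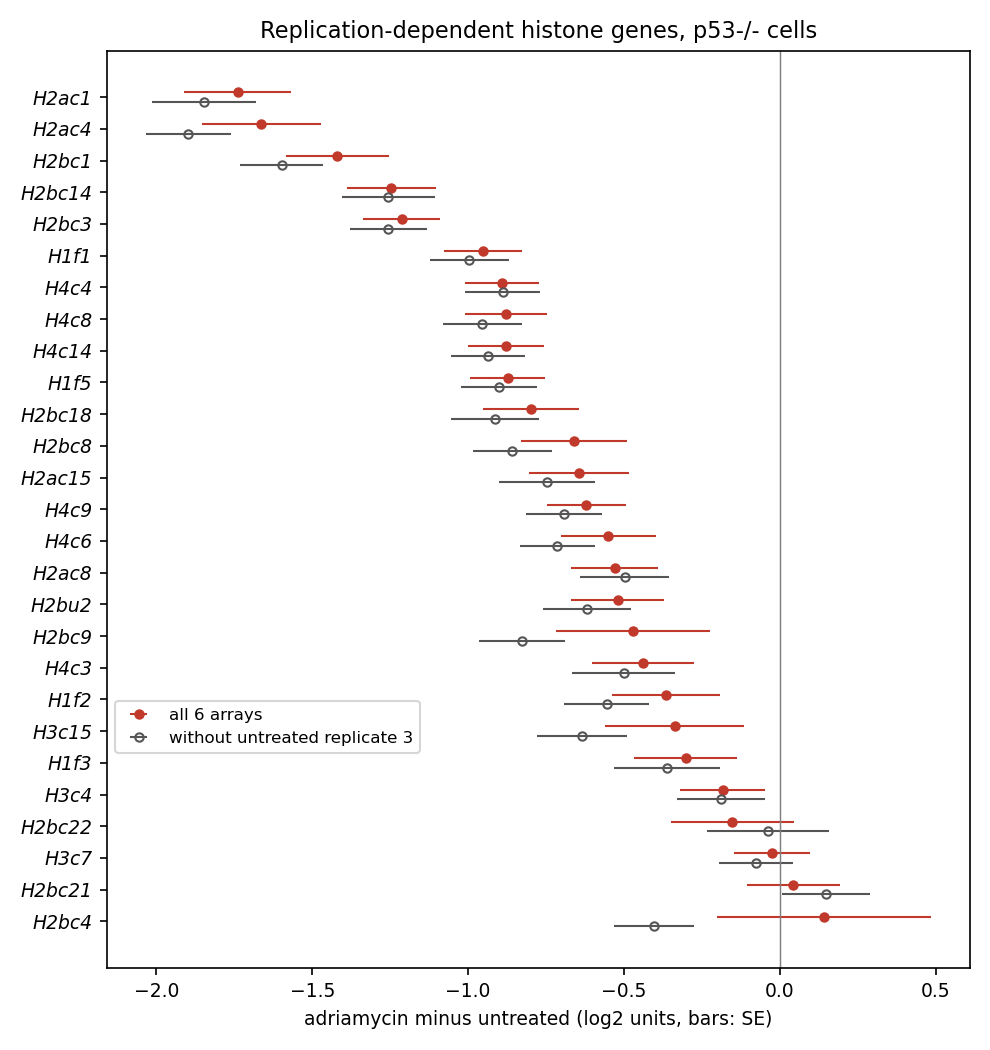
Change after adriamycin of the 27 measured replication-dependent histone genes in p53-/- cells, as adriamycin minus untreated in log2 units; bars are standard errors, filled red points use all 6 arrays and open grey points leave out untreated replicate 3. The points run from -1.74 for H2ac1 to 0.14 for H2bc4 with all 6 arrays, and 25 of the 27 red points lie left of 0.

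Of 12 measured listed variant and linker histones made outside S phase none was called with or without untreated replicate 3. At an unadjusted p 2 were lower (16.7%, against 3.89% of all genes), and the median change was 0.06. None was called in either fit among 20 genes of histone transcription and 3′ end processing. Their median was 0.01, and 1 was lower at an unadjusted p (5%). Slbp, which encodes the protein that binds the histone stem-loop, read 9.67, 9.79 and 9.78 untreated and 9.73, 9.94 and 9.67 treated, a change of 0.04 (SE 0.13, adjusted p = 0.94). Npat, the coactivator of histone genes at the G1/S boundary, read 6.94, 7.08 and 6.96 untreated and 6.35, 6.87 and 6.33 treated; the groups did not overlap but the change did not pass the test, at -0.48 (SE 0.16, adjusted p = 0.27). In R1E cells Slbp fell, by 0.60 on the log2 scale, and the difference of the effects was 0.64 (SE 0.15, adjusted p = 0.00361). Across the replication-dependent list the R1E cells had a median of -0.51, with 25 of 27 lower (25.6% of all genes were). The difference of effects was lower in p53-/- for 2 genes (H2ac1 and H2bc1) and higher for 1 (H2bc4), against 9.99% and 11.1% of all genes.

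SnoRNA genes were the next group among the lower calls. SnoRNAs guide the modification of ribosomal RNA, and most are cut from introns of host genes, often of ribosomal protein or translation genes. Snord37 read 5.67, 5.51 and 5.57 on untreated replicates 1 to 3 and 4.51, 4.79 and 4.62 after adriamycin, a change of -0.94 (SE 0.13, adjusted p = 0.0212). Snord38a read 5.54, 5.20 and 5.14 on untreated replicates 1 to 3 and 4.32, 4.45 and 4.48 after adriamycin, a change of -0.87 (SE 0.14, adjusted p = 0.0486). Both were without overlap. Snord14e, with the largest fall of the named snoRNAs, read 9.84, 9.31 and 9.48 untreated and 8.69, 8.70 and 8.27 treated; at -0.99 (SE 0.17, adjusted p = 0.0721) it missed the threshold with all 6 arrays and passed without untreated replicate 3, at -1.02 (SE 0.17, adjusted p = 0.0198). Of 53 measured snoRNA genes 51 changed below 0 (7452 of 19938 over all genes), with a median of -0.39, and 29 were lower at an unadjusted p (54.7%, against 3.89% of all genes). Called lower were 2 with all 6 arrays (0.0802% of all genes were) and 20 (37.7%, against 1.55%) without untreated replicate 3. In R1E cells 35 of the 53 were lower (25.6% of all genes were), with a median of -0.35. The difference of effects was lower for 1 and higher for 1, against 9.99% and 11.1% of all genes. This grouping was made by annotation after the values were seen, and several snoRNAs share a host gene.

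**Figure D3:**
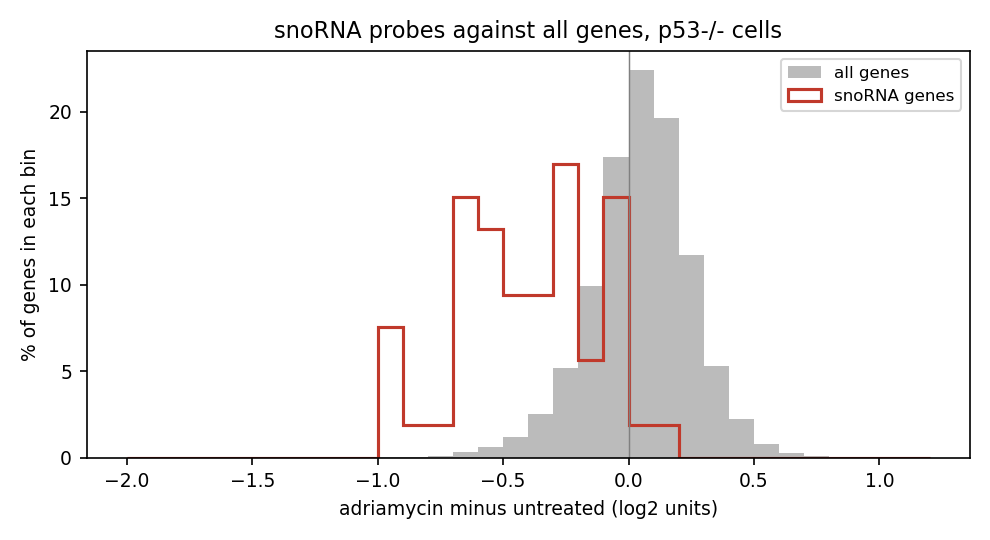
Distribution of the change after adriamycin in p53-/- cells (adriamycin minus untreated, log2 units, bins of equal width) as a percentage of genes, for all 19938 genes in grey and for the 53 snoRNA genes in red outline. The snoRNA genes have a median of -0.39 and 51 of 53 lie below 0, while all genes have a median of 0.06.

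Probes of the Mir17hg cluster also read lower after adriamycin, and whether they passed the test depended on untreated replicate 3. This cluster on chromosome 14 gives several microRNAs from a single primary transcript, Mir17hg, and is a known target of MYC. Mature sequences of its measured members are shown, grouped by seed, because the seed (bases 2 to 8, in capitals) sets which mRNAs they pair with; sequences are from RefSeq (GRCm38.p6), 5′ to 3′. miR-17-5p and miR-20a-5p share the seed AAAGUGC, miR-18a-5p has AAGGUGC, and miR-19a-3p and miR-19b-3p share GUGCAAA.

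mmu-miR-17-5p, chr14:115043684-115043706, plus strand: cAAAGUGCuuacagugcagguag
mmu-miR-20a-5p, chr14:115044183-115044205, plus strand: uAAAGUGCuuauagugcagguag
mmu-miR-18a-5p, chr14:115043867-115043889, plus strand: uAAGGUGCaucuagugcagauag
mmu-miR-19a-3p, chr14:115044048-115044070, plus strand: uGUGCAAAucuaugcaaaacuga
mmu-miR-19b-3p, chr14:115044358-115044380, plus strand: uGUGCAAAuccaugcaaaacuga

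The sources used here do not say which form of each RNA the probes read, so their signal is not assigned to the mature forms. The host transcript Mir17hg read 7.10, 6.85 and 6.24 on untreated replicates 1 to 3 and 5.83, 5.69 and 5.93 after adriamycin. Untreated replicate 3 lay between the other untreated arrays and the treated ones. The change was -0.92 (SE 0.19, adjusted p = 0.151) with all 6 arrays and -1.16 (SE 0.13, adjusted p = 0.00293) without it. Mir20a read 6.48, 6.39 and 5.26 untreated and 5.03, 5.19 and 4.83 treated, so that untreated replicate 3 came close to adriamycin replicate 2; its change was -1.03 (SE 0.26, adjusted p = 0.2), and -1.42 (SE 0.13, adjusted p = 0.00053) without untreated replicate 3. Mir18 read 6.10, 6.16 and 5.01 untreated and 4.59, 5.22 and 5.01 treated, where untreated replicate 3 fell inside the treated range. Mir19a likewise read 4.99, 4.73 and 3.98 untreated and 3.65, 4.000 and 3.96 treated. Mir19b-1 read 6.10, 6.14 and 5.38 untreated and 5.07, 5.14 and 4.88 treated, without overlap. For Mir17 untreated replicate 3 was the highest array (4.43, 4.38 and 4.50 untreated and 3.80, 3.92 and 4.18 treated), and its change of -0.47 (SE 0.13) did not pass with or without it. In all, 6 of 6 measured genes changed below 0 (7452 of 19938 over all genes) with a median of -0.83. None was called with all 6 arrays (all 6 had an unadjusted p below 0.05, against 3.89% of genes lower at that level). Without untreated replicate 3, 5 of 6 were called lower (1.55% of all genes were). In R1E cells all 6 were lower (25.6% of all genes were), with a median of -0.66. No difference of effects was called, against 21.1% of all genes. These 6 share a transcript and were chosen after their values were seen. Of 8 measured genes of the paralogous clusters 1, Mir363, was lower without untreated replicate 3. Over all 297 microRNA genes the median was 0.03 and none was called with all 6 arrays, with 5 higher and 11 lower at an unadjusted p (1.68% and 3.70%, against 7.68% and 3.89% of all genes).

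**Figure D4:**
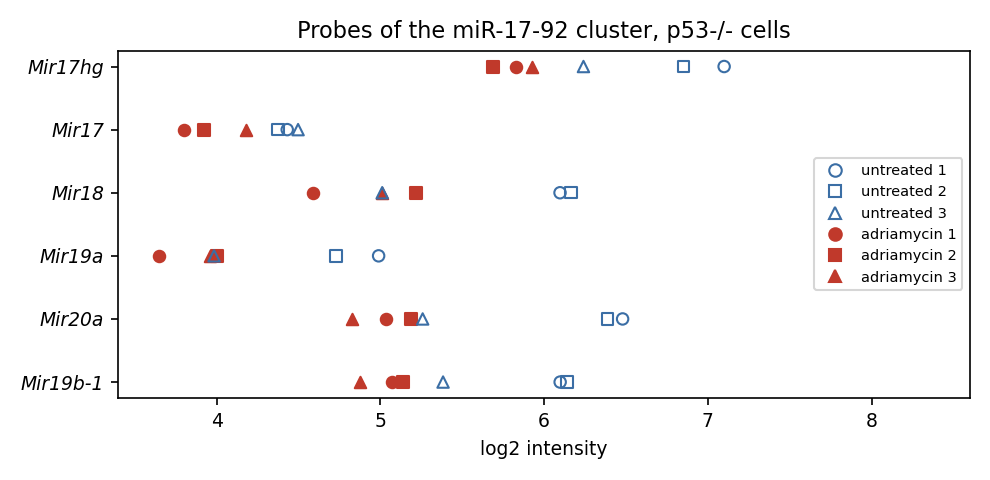
Log2 intensity of the 6 measured probes of the Mir17hg cluster on each p53-/- array; open blue symbols are untreated arrays, filled red symbols adriamycin arrays, and the shape gives the replicate number. For Mir18 and Mir19a the blue triangle of untreated replicate 3 lies within the treated range, while untreated replicates 1 and 2 lie to the right of every treated array in each row.

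The other lower genes were Nrf1, Cdh11 and Leng8. Nrf1, a transcription factor for nuclear genes of mitochondrial respiration, read 7.40, 7.29 and 6.78 on untreated replicates 1 to 3 and 6.05, 6.06 and 6.01 after adriamycin, a change of -1.12 (SE 0.16, adjusted p = 0.0245). All treated arrays lay below all untreated ones. Its change in R1E cells was -1.11, and the difference of effects was -0.01 (SE 0.17, adjusted p = 0.977). Leng8 read 7.21, 7.21 and 7.21 on untreated replicates 1 to 3 and 6.52, 6.50 and 6.32 after adriamycin, a change of -0.77 (SE 0.12, adjusted p = 0.0486); it fell by less in R1E cells (-0.20), a difference of -0.56 (SE 0.13, adjusted p = 0.00349).

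Cdh11, a cadherin of mesenchymal cells, read 8.46, 8.44 and 8.27 on untreated replicates 1 to 3 and 7.29, 7.70 and 7.24 after adriamycin, a change of -0.98 (SE 0.15, adjusted p = 0.0348). In R1E cells the change was -0.04, and the difference was -0.94 (SE 0.16, adjusted p = 0.00034). The mean level of 21 measured fibroblast genes was also lower, at 7.17 to 7.25 on the untreated arrays and 6.96 to 7.12 on the treated ones. Of their changes 15 lay below 0 (7452 of 19938 over all genes) and 6 above, with a median of -0.16, and none was called. Of the 8 fibroblast markers used to check the cells, the summed level was 60.2 to 61.0 untreated and 58.3 to 60.8 treated; the fibroblast marker Lum was dim (3.37 to 4.40), while Col1a1 and Acta2 were bright. Of these 8, Dcn (0.09), Lum (0.08) and Thy1 (0.01) changed above 0 with all 6 arrays, and Col1a1, Col1a2, Col3a1, Postn and Acta2 below. Without untreated replicate 3, 2 of the 21 fibroblast genes were called lower (9.52%, against 1.55% of all genes). They were Prrx1 and Postn, at -0.67 (SE 0.15, adjusted p = 0.0425) and -0.53 (SE 0.12, adjusted p = 0.0465). The part of these cells in the fall of Cdh11 was not tested, and in bulk RNA fewer cells of a type and less RNA per cell cannot be told apart.

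The genes that rose were Procr, Muc1 and Ldoc1. Procr, the endothelial protein C receptor, read 6.52, 6.44 and 6.11 on untreated replicates 1 to 3 and 7.46, 7.26 and 7.37 after adriamycin. All treated arrays lay above all untreated ones, and the change was 1.01 (SE 0.14, adjusted p = 0.0212). It rose in R1E cells too, by 0.63. Muc1, a membrane mucin, read 5.65, 5.80 and 6.02 on untreated replicates 1 to 3 and 6.63, 6.63 and 6.68 after adriamycin, a change of 0.82 (SE 0.13, adjusted p = 0.0486). Ldoc1, a small nuclear leucine zipper protein, read 4.26, 4.46 and 4.31 on untreated replicates 1 to 3 and 5.16, 5.13 and 5.11 after adriamycin, a change of 0.79 (SE 0.12, adjusted p = 0.039). The latter pair went the opposite way in R1E cells, with changes of -0.60 for Muc1 and -0.48 for Ldoc1, and the differences of effects were 1.43 (SE 0.14, adjusted p = 5.6e-07) and 1.27 (SE 0.18, adjusted p = 4.3e-05). When each array was centred on its median, Procr alone of the higher calls remained. Of these 3, Procr alone also stayed called with quantile normalization, and Ldoc1 was among the genes that the dim-gene filter removed.

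The p53-activated targets, as a list, gave no call without p53. Of 42 measured genes none was called with all 6 arrays or without untreated replicate 3 (0.0953% and 2.22% of all genes were). At an unadjusted p 11 were higher (26.2%, against 7.68% of all genes) and none lower. Of the changes 31 lay above 0 (12486 of 19938 over all genes), with a median of 0.20 against 0.06 for all genes. In R1E cells the median was 1.00, with 37 of 42 higher and 3 lower (21.9% and 25.6% of all genes). The effect was lower in p53-/- than in R1E cells for 33 of the 42, against 9.99% of all genes, and higher for 1, Plk3 (11.1% of all genes). Mdm2, which encodes the ubiquitin ligase that restrains p53, read 8.44, 8.64 and 8.68 on untreated replicates 1 to 3 and 8.54, 8.89 and 8.90 after adriamycin. The groups overlapped, and the change was 0.19 (SE 0.14, adjusted p = 0.651), against 1.89 in R1E cells. The death receptor gene Fas read 4.84, 4.81 and 4.60 untreated and 4.52, 4.88 and 5.25 treated, a change of 0.13 (SE 0.17, adjusted p = 0.82) against 3.18 in R1E. Plk2, a kinase of the damage response, changed by -0.02 (SE 0.19, adjusted p = 0.984) against 2.96. Btg2, an antiproliferative gene, changed by 0.45 (SE 0.20, adjusted p = 0.423) against 2.46. The other named targets had changes of 0.21 (SE 0.13) for Ccng1, 0.26 (SE 0.18) for Sesn2, 0.34 (SE 0.13) for Trp53inp1 and 0.39 (SE 0.17) for Tap1, none past the test, and R1E changes of 0.88, 0.90, 1.24 and 3.53. The targets nearest to a rise in p53-/- cells included Perp, a gene of cell adhesion and apoptosis, at 0.46 (SE 0.19, adjusted p = 0.384), and Lif, the cytokine of self-renewal, at 0.42 (SE 0.13, adjusted p = 0.245).

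**Figure D5:**
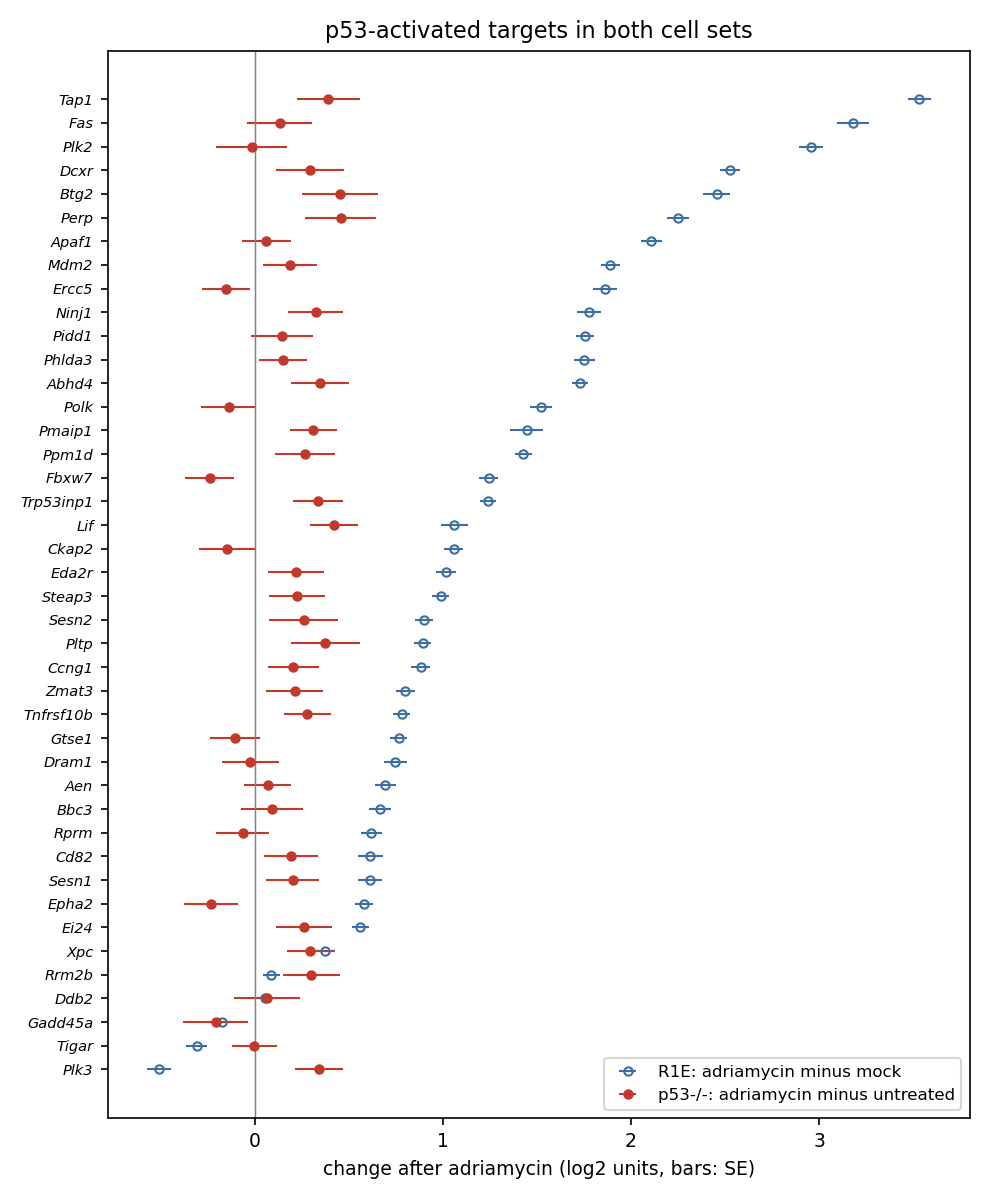
Change after adriamycin in log2 units of the 42 measured p53-activated targets, in p53-/- cells (filled red, adriamycin minus untreated) and in R1E cells (open blue, adriamycin minus mock); bars are standard errors and genes are ordered by the R1E change. The red points stay between -0.24 and 0.46, while the blue points reach 3.53 for Tap1.

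Of the panel's R1E responders outside that list, Alox5, Them5 and Trp73 gave no call in p53-/- cells. Alox5 (arachidonate 5-lipoxygenase) read 4.95, 4.79 and 4.83 untreated and 5.22, 5.43 and 5.34 treated; these groups did not overlap, the change was 0.48 (SE 0.12, adjusted p = 0.206), and it was 3.97 in R1E cells. Them5, a mitochondrial thioesterase gene, changed by 0.23 (SE 0.15, adjusted p = 0.601) against 4.61. Trp73, the p53 relative, changed by 0.08 (SE 0.17, adjusted p = 0.883) against 2.43. These genes were named with the R1E response known, so the contrast between the sets is a description. Among p53's regulators Mdm4, an inhibitor of p53, read 7.68, 7.61 and 7.32 on untreated replicates 1 to 3 and 6.72, 6.79 and 6.18 after adriamycin. Its groups did not overlap, and the change of -0.97 (SE 0.17, adjusted p = 0.0932) passed without untreated replicate 3, at -1.08 (SE 0.17, adjusted p = 0.0136). It was 0.37 in R1E cells, and the difference was -1.34 (SE 0.17, adjusted p = 1.6e-05). Ep300, a p53 coactivator and acetyltransferase, was lower without untreated replicate 3, at -0.64 (SE 0.13, adjusted p = 0.0332).

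Pluripotency genes gave no call in the absence of p53. Of 40 measured genes of the core and naive network none was called with all 6 arrays (0.0953% of all genes were). At an unadjusted p 6 were lower (15%, against 3.89% of all genes) and 0 higher, and the median was -0.005. In R1E cells the median was -0.70 and 36 of 40 were lower, against 25.6% of all genes. The difference of effects was higher in p53-/- for 30 of the 40, against 11.1% of all genes. Nanog read 10.20, 10.41 and 10.53 on untreated replicates 1 to 3 and 10.46, 10.53 and 10.48 after adriamycin. Its change was 0.11 (SE 0.13, adjusted p = 0.793), against -1.12 in R1E cells. Pou5f1, which encodes OCT4, and Sox2 changed by 0.05 (SE 0.12, adjusted p = 0.912) and -0.002 (SE 0.13, adjusted p = 0.997). Prdm14, a regulator of the naive state, changed by 0.15 (SE 0.14) against -2.77 in R1E, and Esrrb by -0.32 (SE 0.13) against -0.72. Zfp42 (Rex1) read 9.31, 9.31 and 8.21 on untreated replicates 1 to 3 and 8.58, 8.61 and 7.61 after adriamycin, with the third replicate low in both groups, a change of -0.68 (SE 0.31, adjusted p = 0.429) that passed without untreated replicate 3, at -1.05 (SE 0.24, adjusted p = 0.045). Rif1, also a factor of replication timing and break repair, had a log2 difference of -0.72 (SE 0.18, adjusted p = 0.192) with all 6 arrays and was the other called gene without that array, at -0.81 (SE 0.18, adjusted p = 0.0431).

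Most mitotic genes had values below 0. These genes of G2 and mitosis rise late in the cell cycle. Of 50 measured genes 44 changed below 0 (7452 of 19938 over all genes), with a median of -0.28. At an unadjusted p 24 were lower (48%, against 3.89% of all genes) and 1 higher, but none was called with all 6 arrays. With untreated replicate 3 excluded 9 were called lower (18%, against 1.55%): Hmmr, Cenpe, Plk1, Kif18a, Kif4, Cdc25c, Ttk, Anln and Sgo1. Plk1, the kinase that drives mitotic entry, read 9.64, 9.52 and 9.61 on untreated replicates 1 to 3 and 8.71, 8.90 and 9.03 after adriamycin, with no overlap and with untreated replicate 3 inside the range of its group. Its change was -0.71 (SE 0.13, adjusted p = 0.102) with 6 arrays and -0.70 (SE 0.13, adjusted p = 0.0254) without that array. Hmmr, a spindle assembly factor, read 7.70, 7.86 and 7.44 on untreated replicates 1 to 3 and 7.05, 6.84 and 6.97 after adriamycin, a change of -0.71 (SE 0.14, adjusted p = 0.119) and of -0.83 (SE 0.13, adjusted p = 0.0125) without it. Cenpe, a kinetochore motor, changed by -0.54 (SE 0.17, adjusted p = 0.263) and by -0.75 (SE 0.12, adjusted p = 0.018), and differed from its change of 0.26 in R1E cells by -0.80 (SE 0.18, adjusted p = 0.00331). Of the list, 4 genes had a lower effect in p53-/- than in R1E cells and 13 a higher one (9.99% and 11.1% of all genes). In R1E cells the list had a median of -0.42, with 41 of 50 lower (25.6% of all genes were).

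Few other replication, repair and checkpoint genes were called. DNA replication genes (57 measured) had a median of 0.06, and genes of recombination and checkpoint signalling (45 measured) a median of -0.06, none called with all 6 arrays. At an unadjusted p the first list had 4 higher and 4 lower (7.02% and 7.02%) and the second 4 and 2 (8.89% and 4.44%). Of all genes 7.68% were higher and 3.89% lower. The lower share of the first list lay above that of all genes, and the other shares were near those of all genes. Without untreated replicate 3 the first list had 2 called lower (3.51%) and the second 1 (2.22%), against 1.55% of all genes. The 2 were Orc3 and Orc4, subunits of the origin recognition complex, at -0.55 (SE 0.12, adjusted p = 0.0401) and -0.67 (SE 0.12, adjusted p = 0.0218). The gene of the second list was Atr, the kinase that signals stalled replication. Atr read 7.53, 7.45 and 7.04 on untreated replicates 1 to 3 and 6.72, 6.62 and 6.62 after adriamycin, without overlap, a change of -0.69 (SE 0.15, adjusted p = 0.154) and of -0.83 (SE 0.12, adjusted p = 0.00772) without untreated replicate 3. The tousled-like kinases Tlk1 and Tlk2, which act on the histone chaperone ASF1, were lower without that array, at -0.95 (SE 0.15, adjusted p = 0.0151) and -0.996 (SE 0.16, adjusted p = 0.0151). With all 6 arrays they changed by -0.75 (SE 0.19, adjusted p = 0.195) and -0.84 (SE 0.18, adjusted p = 0.152). Of the drug's own targets, Top2a, the topoisomerase II of dividing cells, changed by -0.01 (SE 0.13, adjusted p = 0.989), and Top2b by -0.42 (SE 0.17, adjusted p = 0.377), the latter called only without untreated replicate 3, at -0.61 (SE 0.13, adjusted p = 0.0423). Whether their changes differ was not tested.

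Signalling and stress lists gave no call with all 6 arrays, where 0.0953% of all genes were called. Immediate early and AP-1 genes (31 measured) had a median of 0.13, with none called and 5 higher at an unadjusted p (16.1%, against 7.68% of all genes). Fos read 5.10, 5.69 and 5.57 untreated and 5.99, 6.16 and 6.05 treated, a change of 0.61 (SE 0.16, adjusted p = 0.206) with groups that did not overlap, and Egr1 changed by 0.23 (SE 0.12, adjusted p = 0.487). Arc, an activity-regulated early gene, was called without untreated replicate 3, at 0.69 (SE 0.13, adjusted p = 0.0253), as was Jund, at 0.60 (SE 0.14, adjusted p = 0.0466). Myc read 9.02, 9.18 and 9.08 untreated and 9.10, 9.19 and 8.85 treated, a change of -0.05 (SE 0.13, adjusted p = 0.925), against -0.82 in R1E cells and a difference of 0.77 (SE 0.13, adjusted p = 0.00037). Of 17 BCL2 family genes 16 changed above 0 (12486 of 19938 over all genes), with a median of 0.11, and 6 were higher at an unadjusted p (35.3%, against 7.68% of all genes); Bcl2l14 was called higher without untreated replicate 3, at 0.56 (SE 0.13, adjusted p = 0.0477). Of 22 NF-kB and inflammatory targets 5 were higher at an unadjusted p (22.7%, against 7.68%), and Nfkbia, the feedback inhibitor of NF-kB, was called higher without that array, at 0.64 (SE 0.14, adjusted p = 0.0394). At an unadjusted p with all 6 arrays, 32 unfolded protein genes had 3 higher and 3 lower, 17 heat shock genes 2 and 2, 24 antioxidant genes 3 and 0, 26 interferon genes 3 and 0 and 19 cholesterol synthesis genes 2 and 0. Of all genes 7.68% were higher and 3.89% lower at that level. With untreated replicate 3 left out the heat shock factor Hsf2 was lower, at -0.69 (SE 0.13, adjusted p = 0.0228), as was Hif1a, the oxygen-sensing factor, at -0.54 (SE 0.12, adjusted p = 0.0431). The glutathione transferase Gstm1 was higher, at 0.54 (SE 0.12, adjusted p = 0.0431). The cyclin Ccne2, which drives S-phase entry, was lower, at -0.55 (SE 0.12, adjusted p = 0.0397), as was the pocket protein gene Rbl1, at -0.53 (SE 0.12, adjusted p = 0.0466). With that array left out 0.672% of all genes were called higher and 1.55% lower.

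Among the largest changes without untreated replicate 3 that also had no overlap with all 6 arrays, chosen after their values were seen, the rises included Slc40a1, the iron exporter ferroportin, at 0.98 (SE 0.17, adjusted p = 0.02). Atp1b2, a subunit of the sodium pump, rose by 0.91 (SE 0.16, adjusted p = 0.02), and Nr2f6, an orphan nuclear receptor, by 0.89 (SE 0.17, adjusted p = 0.0269). Retsat, a retinol saturase, rose by 0.80 (SE 0.14, adjusted p = 0.0208), and in R1E cells its change was 2.51. With all 6 arrays Atp1b2 rose by 0.83 (SE 0.16, adjusted p = 0.116), and it went the other way in R1E cells (-0.72). The difference of effects, which also uses all 6 arrays, was 1.54 (SE 0.15, adjusted p = 7.6e-07). The falls included Mios, a subunit of a nutrient-sensing complex upstream of mTORC1, at -1.14 (SE 0.14, adjusted p = 0.00311), and Cep70, a centrosomal protein, at -0.998 (SE 0.13, adjusted p = 0.00462). Mgp, an inhibitor of calcification made by mesenchymal cells, fell too, at -0.85 (SE 0.16, adjusted p = 0.027). The part of fibroblast cells in this fall was not tested. With all 6 arrays the changes were 0.84 for Slc40a1, 0.65 for Nr2f6, 0.82 for Retsat, -0.96 for Mios, -0.70 for Cep70 and -0.64 for Mgp, none called.

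Calls were also counted by gene length. Without untreated replicate 3, of 2294 genes spanning 100 kb or more, 58 were lower (2.53%) and 4 higher (0.174%). Of 6997 genes under 10 kb, 95 were lower (1.36%) and 65 higher (0.929%), and of 10562 between these lengths 154 were lower (1.46%) and 65 higher (0.615%). With all 6 arrays the unadjusted counts were 160 lower and 86 higher among the longest (6.97% and 3.75%), and 170 lower and 625 higher among the shortest (2.43% and 8.93%). The classes are set side by side with no test between them.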

How the data were processed

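RNA of 18 arrays was hybridised by the submitters to an Affymetrix whole-transcript array. The deposited values are log2 intensities; per the submitters' processing notes, the p53-/- arrays were processed by RMA in Partek 6.4 and the R1E arrays in Affymetrix Expression Console 1.1. The sets were thus normalized separately, and levels were compared only within a set. No genome build of the array was used.

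Of 28853 probes, 21789 named 1 gene, 1621 several and 5443 none; only the first were named, 21698 of them matched to RefSeq GRCm38.p6. Each of 999 genes with several probes was represented by its brightest, by mean over these 6 arrays. The 19938 genes were fitted in limma 3.58.1 (R 4.3.3), lmFit and eBayes, with no filter, on the 6 p53-/- arrays alone; called means a Benjamini-Hochberg adjusted p below 0.05 over all genes. The difference from R1E came from 1 limma fit over 14 arrays with a weight per set (arrayWeights), on 19935 genes. Errors are moderated standard errors (SE), with a median of 0.140 in p53-/- and 0.0605 in R1E cells. The set weights were 0.445 for p53-/- and 1.83 for R1E cells, a lower weight meaning replicate arrays that spread more. Array number limits precision too. The spread of levels across the genes of an array is a different measure. It was smaller in p53-/- arrays (SD 1.89 to 2.02) than in R1E arrays (2.22 to 2.30). In simulated arrays with 200 of 19938 genes changed, the 6-array fit recovered 16.8% of 1.5-fold and 85.6% of 2-fold changes. Of the calls of that fit 4.66% were false. The fit without untreated replicate 3 gave 30.6%, 95.8% and 5.25%. Whether these percentages hold for the deposited arrays, where untreated replicate 3 stood apart, was not tested.

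The 36 gene lists, a panel of 24 genes and the alternatives were chosen with earlier results of these data known; every gene called with all 6 arrays was named, with the panel; further genes, among them the 9 mitotic ones called without untreated replicate 3, were named after their values were seen. The Mir17hg, snoRNA and length groups were chosen after their values were seen. Upstream and microRNA sequences are from RefSeq tables; H4c14 had no upstream window. Alternatives changed centring, normalization, the dim-gene filter, probe choice, eBayes, array weights, a replicate block, a 1.2-fold minimum and each array left out.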

Additional observations from a re-analysis of the deposited data

Results flagged for a closer look

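A number of named genes responded to adriamycin differently in p53-/- and R1E cells by the test of the difference of effects (limma, adjusted p below 0.05). Values are p53-/- minus R1E, in log2 units. The sets differ in genotype, cell line, array set and tool at once, and these cannot be told apart.

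Among the p53-activated targets the p53-/- effect was lower by the test for Mdm2 (-1.70), Ccng1 (-0.68), Fas (-3.05), Plk2 (-2.97) and Btg2 (-2.003). It was also lower for Sesn2 (-0.64), Trp53inp1 (-0.90) and Tap1 (-3.14). Other strong R1E responders, named with that response known, gave -4.37 for Them5, -3.50 for Alox5 and -2.35 for Trp73.

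Of the panel genes that fell in R1E cells and were not called with all 6 p53-/- arrays, these had a higher effect in p53-/- cells by the test: Nanog (1.22), Prdm14 (2.92), Sox2 (0.55), Esrrb (0.40), Slbp (0.64) and Myc (0.77). For Npat, Top2a and Pou5f1, which also fell in R1E cells, the difference did not pass. Zfp42 differed by 1.07, and fell in R1E cells; in p53-/- cells it was called only with untreated replicate 3 left out. Of the genes called in p53-/- cells, Muc1 (1.43) and Ldoc1 (1.27) rose there and fell in R1E cells. H2ac1 (-1.51), H2bc1 (-0.72) and Leng8 (-0.56) fell further in p53-/- cells. Cdh11 (-0.94) fell in p53-/- cells, and its change in R1E cells did not pass the test.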

How the results depend on the processing

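With 3 higher and 16 lower calls as the base, centring each array on its median gave 1 higher and 23 lower, array weights 692 and 722, and a 1.2-fold minimum 0 and 5. Quantile normalization, leaving out dim genes, averaging probes and eBayes with trend and robust settings stayed within 1.5 times of both counts. Leaving out dim genes kept 15 of the 19 calls and removed Ldoc1, H4c8, Snord37 and Snord38a as dim. Of the panel it removed Fas, Them5, Tap1, Alox5 and Prdm14. Quantile normalization kept 17 of the 19, without Ldoc1 and Muc1. Leaving out each array in turn gave 0 to 134 higher and 0 to 309 lower. Without untreated replicate 3, centring gave 88 higher and 776 lower (10.2% higher, in place of 30.2%), quantile normalization 89 and 232, and leaving out dim genes 231 and 548, all 3 chosen after seeing the data. With the replicate block 0 higher and 5 lower were called. Same-numbered arrays correlated at -0.10, 0.19 and 0.09 in their deviations, so the numbers were not taken to pair the arrays. The 33 p53 targets with a lower effect in p53-/- cells became 29 to 34 with each of the 14 arrays left out, 33 with arrays centred and 35 with 1 spread for both sets, these chosen after seeing the data.

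Among the called genes and the panel, the changes that turned sign were not called: centring gave Pou5f1 -0.046, Slbp -0.058 and Trp73 -0.0093, quantile normalization Trp73 -0.016 and array weights Pou5f1 -0.00061. With each array left out the ranges were Plk2 -0.24 to 0.13, Top2a -0.096 to 0.044, Slbp -0.044 to 0.091, Sox2 -0.044 to 0.075, Fas -0.051 to 0.31, Pou5f1 -0.0095 to 0.11, Trp73 -0.047 to 0.24 and Myc -0.12 to 0.052. The cause of these shifts was not tested.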
